A study of Mus musculus with 6 samples.

Results

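The chemokine ligand genes are the genes whose name begins with *Ccl*, *Cxcl*, *Cx3cl*, or *Xcl* followed by a digit. By this rule 47 of the 55421 genes in the count table were chosen, and they bear 41 different symbols, since some symbols have more than 1 entry. On unplaced scaffolds there are 7 entries. They comprise 32 *Ccl* entries, 13 *Cxcl* entries, *Cx3cl1*, and *Xcl1*. All 47 have a row in the count table, 26 have a count in at least 1 library, and 17 passed the filter on low counts. The expression of these genes was compared between C2C12 myoblasts with the GFP-CUG200 plasmid (DM1 group) and C2C12 myoblasts with the GFP-CUG5 plasmid (normal group).

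C2C12 is an established mouse myoblast line that differentiates into myotubes after serum is lowered. Myotonic dystrophy type 1 (DM1) is caused by a CTG expansion at the end of the *DMPK* gene, and its transcript holds the CUG repeat that gives the plasmids their names. The DM1 group expressed *GFP* followed by 200 repeats, and the normal group expressed *GFP* followed by 5 repeats. Both were pcDNA constructs, both lines were made stable under G418, and both were kept in horse serum with insulin until differentiation day 4, when total RNA was sequenced. Each group had 3 libraries. The study calls them biological replicates. The sources used here do not say whether those of a line came from separate transfections or cultures, so the p-values measure the spread between these libraries only. The difference between the groups is also a difference between 2 stable lines, and the repeat and the line cannot be told apart.

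Chemokines are small secreted or membrane-bound proteins that steer the movement of cells. They bind receptors with membrane-spanning helices that couple to G proteins, and they are held on cell surfaces by heparan sulfate. The family is divided by the spacing of its first cysteines into CC, CXC, CX3C, and XC classes. In skeletal muscle, chemokines are known for bringing monocytes and neutrophils to injured fibers, and the pair of *Cxcl12* and its receptor *Cxcr4* for guiding muscle precursor cells.

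The class of each gene can be read in its coding sequence. The stretches around the first cysteine codons, from GENCODE M21 transcripts (build GRCm38), are shown with the cysteine codons in capitals. They are those of the 9 genes that passed the test and of *Cxcl12*, the most abundant by the mean CPM of each group.
Ccl2: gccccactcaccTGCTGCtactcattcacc
Ccl7: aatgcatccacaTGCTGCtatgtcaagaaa
Ccl9: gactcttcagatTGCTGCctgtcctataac
Cxcl1: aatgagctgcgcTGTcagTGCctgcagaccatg
Cxcl5: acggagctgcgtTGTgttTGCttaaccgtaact
Cxcl9: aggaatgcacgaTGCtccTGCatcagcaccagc
Cxcl12: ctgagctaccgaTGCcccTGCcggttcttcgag
Cxcl13: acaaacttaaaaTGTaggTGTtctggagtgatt
Cxcl14: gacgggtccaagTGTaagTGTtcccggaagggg
Cx3cl1: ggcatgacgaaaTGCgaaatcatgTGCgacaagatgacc
The CC genes had 0 codons between the pair, the CXC genes had 1, and *Cx3cl1* had 3. The first cysteine codon of the pair was codon 34 in *Ccl2*, codon 33 in *Cxcl1*, and codon 32 in *Cx3cl1*, behind the part that codes for the signal peptide. *Xcl1* lacks the first cysteine of the pair and is not shown.

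The library totals ran from 61707889 to 80957325 counts. Each count corresponds to 75 bases of aligned sequence, and since the commonest low value was 4 counts, about the size of 1 sequenced fragment, counts below 10 rest on very few fragments. Values are given as counts, as CPM (counts scaled to a common library size) after scaling by the TMM method, and, where genes are compared with each other, as the deposited TPM, which also corrects for transcript length. A level of 3 counts was worth 0.0357 to 0.0489 CPM in these libraries. This is below the commonest low value of 4 counts, so it does not bound the counting error of whole fragments. The 12 muscle markers all had counts. Of the 11 leukocyte markers, 8 had counts, with *Cd14*, *Cd68*, *Csf1r*, *Ly6g*, and *Fcgr1* counted in every library. The other 3, *Ptprc*, *Adgre1*, and *Cd3e*, were at 0 in all 6 libraries.

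In the DM1 group, 7 genes were higher at an adjusted p-value under 0.05 in edgeR's quasi-likelihood test, and 2 were lower. The 7 were *Ccl2*, *Ccl7*, *Ccl9*, *Cxcl1*, *Cxcl5*, *Cxcl9*, and *Cxcl14*, and the 2 were *Cx3cl1* and *Cxcl13*. Of all 19005 genes tested, 15.9% were called, with 7.13% higher and 8.73% lower, against 9 called among the 17 chemokine ligand genes. With an additional cutoff of 1 on the absolute log2 fold change, 6 genes were higher (1.36% of all genes tested) and 0 were lower (0.816%). DESeq2 also called 0 lower genes past both cutoffs, and 1 gene, *Ccl11*, was below a log2 fold change of -1 with an unadjusted p under 0.05. Of all genes tested, 30.7% had an unadjusted p under 0.05 and DESeq2 called 23.1% of those it tested, and the counts by these rules given below stand against these shares. The median log2 fold change was 0.53 over the 17 genes and 0.02 over all genes tested. The other 30 genes were not tested, and 4 of the 17, *Ccl5*, *Ccl11*, *Cxcl10*, and *Xcl1*, reached the minimum in every library of only 1 group, so these counts describe the genes that passed and not the family.

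**Figure D1:**
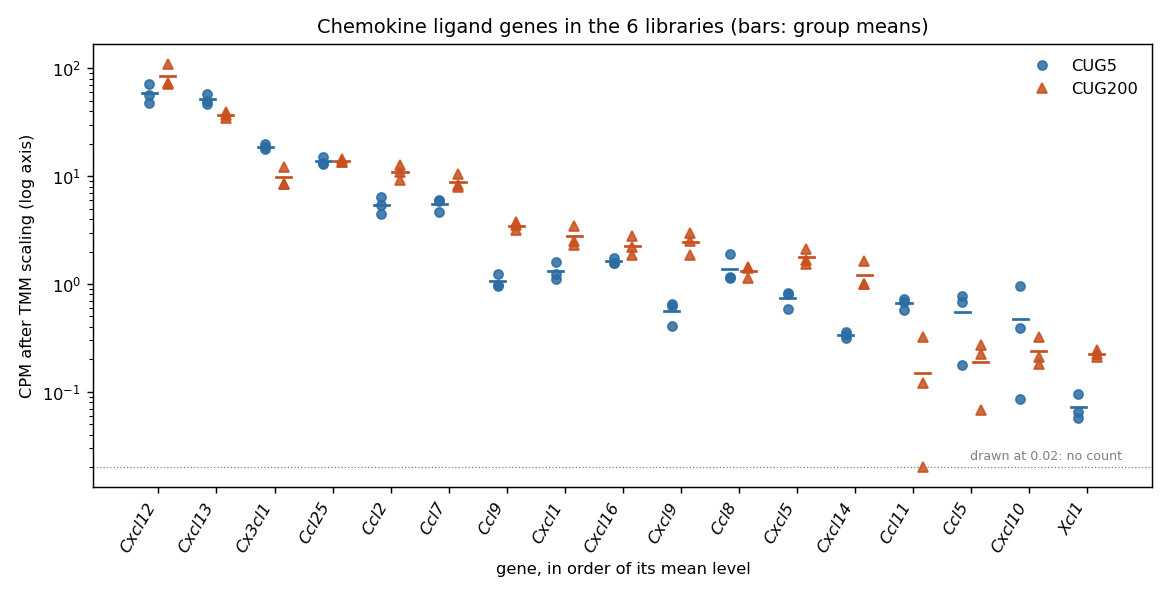
CPM after TMM scaling (log axis) of the 17 tested chemokine ligand genes in each of the 6 libraries, with circles for CUG5 (normal), triangles for CUG200 (DM1), and bars for the group means. *Cxcl12* and *Cxcl13* lie above 30 CPM in every library, and the 3 triangles of *Ccl2*, *Ccl7*, *Ccl9*, *Cxcl1*, *Cxcl5*, *Cxcl9*, and *Cxcl14* lie above their 3 circles.

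In the CPM of single libraries, the groups did not overlap for 12 of the 17 genes, which was so for 37.2% of all genes tested. All DM1 libraries were above the normal ones for 9 genes (17.9% of all genes tested) and below for 3 genes (19.3%). Those above were the 7 called genes, *Cxcl16*, and *Xcl1*, and those below were *Cx3cl1*, *Cxcl13*, and *Ccl11*. Of these, *Xcl1* and *Ccl11* had passed the filter only through the group in which they are high. The groups overlapped for *Ccl5*, *Ccl8*, *Ccl25*, *Cxcl10*, and *Cxcl12*.

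Among the CC ligands, *Ccl2*, *Ccl7*, and *Ccl9* rose. *Ccl2*, the main ligand of the monocyte receptor CCR2 (chr11:82035571-82037453), had 377, 394, and 376 counts in the normal group against 679, 781, and 838 in the DM1 group. Its mean rose from 5.43 ± 0.967 to 10.9 ± 1.74 CPM (SD, n = 3), a log2 fold change of 1.01 ± 0.18 (SE) with an adjusted p-value of 0.00865. This log2 fold change lies at the cutoff of 1. It ran from 0.826 to 1.02 under the other settings and from 0.885 to 1.14 when single libraries were left out. The lowest DM1 library of *Ccl2* was above the highest normal library. *Ccl7*, another ligand of CCR2, starts 8.26 kb downstream of *Ccl2* (chr11:82045712-82047525) and had 390, 365, and 408 counts against 779, 584, and 532. It rose from 5.47 ± 0.725 to 8.89 ± 1.38 CPM (log2 fold change 0.70 ± 0.16, adjusted p-value 0.0233), with DM1 library 1 the highest. The call of *Ccl7* was lost in 5 of the 6 fits that each left out 1 library, with adjusted p-values from 0.0197 to 0.0813, and was kept only without CUG200 replicate 3.

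*Ccl9*, which in mice signals through CCR1 to myeloid cells (chr11:83572919-83578636), showed the largest rise among the CC ligands that passed the test. Its counts were 83, 76, and 67 in the normal group and 282, 224, and 233 in the DM1 group. That is 1.06 ± 0.153 against 3.48 ± 0.325 CPM, a fold change of 3.28 (log2 fold change 1.71 ± 0.20, adjusted p-value 0.00227). The DM1 libraries of *Ccl9* lay close together and far above the normal libraries.

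The remaining CC ligands that were tested did not pass. *Ccl8*, a further gene of the monocyte chemoattractant group, had 97, 116, and 79 counts against 84, 101, and 96 (log2 fold change -0.06, 95% confidence interval -0.69 to 0.57, adjusted p-value 0.912). *Ccl25*, known as a thymus chemokine and ligand of CCR9, had 1080, 925, and 934 counts against 1005, 971, and 959. Its log2 fold change was 0.01 with a 95% confidence interval from -0.24 to 0.26, and a change of the size measured for *Ccl2* lies outside this interval. *Ccl25* shares 204 exonic bases with *Elavl1* on the opposite strand, and the strand setting of the counting is not given in the sources used here.

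*Ccl11* (eotaxin, the eosinophil ligand of CCR3) had 61, 42, and 40 counts in the normal group and 9, 23, and 0 in the DM1 group. The groups did not overlap, but the log2 fold change of -2.14 ± 0.87 had an adjusted p-value of 0.139. It ran from -3.37 without CUG200 replicate 2 to -1.57 without CUG200 replicate 3. On log2(TPM + 1) and log2(TPM + 0.1), limma called *Ccl11* lower. *Ccl5* (RANTES, which attracts T cells and monocytes) had 65, 11, and 48 counts against 5, 16, and 18. Normal library 2 of *Ccl5* lay below DM1 libraries 2 and 3 in CPM, and the log2 fold change of -1.55 ± 0.69 had an adjusted p-value of 0.167.

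**Figure D2:**
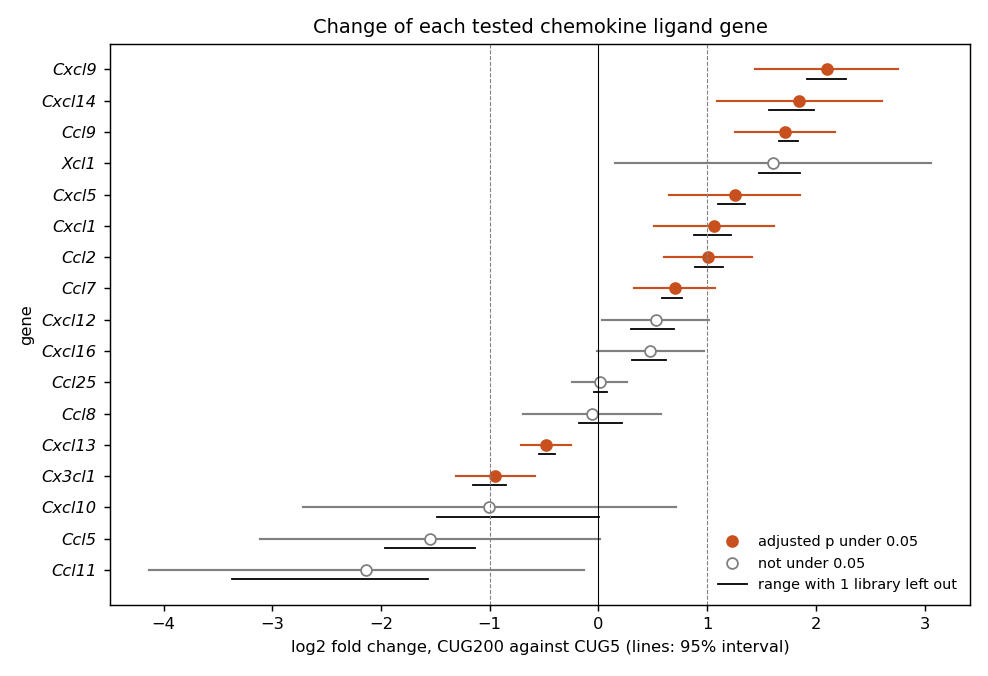
Log2 fold change of CUG200 against CUG5 for each of the 17 tested chemokine ligand genes, with 95% confidence intervals as coloured or grey lines, the range of the estimate with 1 library left out as a black line, and dashed lines at -1 and 1. Filled points have an adjusted p-value under 0.05. *Cxcl9* lies highest at 2.10 and *Ccl11* lowest at -2.14 with an interval from -4.14 to -0.14.

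Both ligands of the neutrophil receptor CXCR2 that were tested rose. *Cxcl1* (KC, chr5:90891241-90893115) had 133, 69, and 87 counts in the normal group against 258, 162, and 168 in the DM1 group. It rose from 1.32 ± 0.237 to 2.76 ± 0.630 CPM, a 2.09-fold change (log2 fold change 1.06 ± 0.24, adjusted p-value 0.0213). Library 1 was the highest of its group in both lines. Without CUG5 replicate 2, CUG5 replicate 3, or CUG200 replicate 1 the call of *Cxcl1* was lost, with adjusted p-values up to 0.0818, and limma on the TPM values did not call it.

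*Cxcl5* (LIX, chr5:90759360-90761624) had 49, 51, and 57 counts against 156, 108, and 112. The mean was 0.743 ± 0.139 CPM in the normal group and 1.77 ± 0.300 CPM in the DM1 group (log2 fold change 1.25 ± 0.26, adjusted p-value 0.0160). Every DM1 library of *Cxcl5* was above every normal library. Leaving out CUG5 replicate 1 or CUG5 replicate 3 took the adjusted p-value of *Cxcl5* over 0.05, up to 0.0598. The related *Cxcl2* and *Cxcl3*, which code for ligands of the same receptor and lie in the same stretch of chromosome 5, had 0 counts in all libraries and at most 1 count, respectively.

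The letters before the start sites of *Cxcl1*, *Cxcl2*, and *Cxcl3* were compared because *Cxcl1* was detected in every library and its neighbours were not. The windows are 100 bases long and run from base 130 to base 31 before the RefSeq start (build GRCm38.p6), and for *Ccl9* from base 120 to base 21. Capitals mark matches to 2 patterns on either strand. The first is GGG followed by 2 bases of any kind and TTTCC, a core form of the site of NF-κB. This factor carries inflammatory signals to many chemokine genes. The second is TATAAA, the letters of the TATA box, at any position.
Cxcl1, chr5:90891115-90891214, plus strand: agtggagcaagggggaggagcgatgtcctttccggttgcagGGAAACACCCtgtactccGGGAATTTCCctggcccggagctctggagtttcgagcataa
Cxcl2, chr5:90903769-90903868, plus strand: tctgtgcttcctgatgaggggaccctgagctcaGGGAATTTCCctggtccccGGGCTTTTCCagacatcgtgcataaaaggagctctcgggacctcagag
Cxcl3, chr5:90785971-90786070, plus strand: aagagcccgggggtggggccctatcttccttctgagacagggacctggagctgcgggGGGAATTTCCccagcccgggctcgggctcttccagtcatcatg
Ccl9, chr11:83578657-83578756, minus strand: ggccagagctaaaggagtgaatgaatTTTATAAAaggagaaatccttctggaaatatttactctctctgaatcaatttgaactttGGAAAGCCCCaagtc
The run GGGAATTTCC stood at bases 71 to 62 before the start in *Cxcl1*, 97 to 88 in *Cxcl2*, and 73 to 64 in *Cxcl3*. Thus the gene that was counted and the 2 genes at or near 0 all held this run. *Cxcl3* also held TATAAA at bases 30 to 25, just past its window, and *Cxcl1* and *Cxcl2* had no match to it in the 250 bases searched. In *Ccl9* the match was on the opposite strand, at bases 35 to 26, and the capitals TTTATAAA hold TATAAA on both strands, overlapping.

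Of the 41 symbols, 27 had an entry in the RefSeq promoter table. Those without one include *Ccl2*, *Ccl7*, and *Cxcl5*. These 27 have 33 entries, and 5 of the 33, those of *Cxcl1*, *Cxcl2*, *Cxcl3*, *Ccl9*, and of *Ccl20* (at 0 counts), held this NF-κB form in the 250 bases before a start. The share over all 32851 promoters of the table was 1.41%. TATAAA was in 10 of the 33 entries, against 12.4% of all promoters. Among them were *Cxcl9*, at bases 195 to 190 before the start, and *Cxcl13*, at bases 46 to 41. These matches describe letters in short windows and not bound sites.

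Of the ligands of CXCR3, the receptor of activated T cells, *Cxcl9* rose and *Cxcl10* did not pass the test. Whether the 2 differed from each other was not tested. *Cxcl9* (chr5:92321347-92328079), which interferon gamma induces in many cells, had 55, 25, and 44 counts in the normal group against 137, 179, and 196 in the DM1 group. The mean was 0.564 ± 0.136 CPM in the normal group and 2.43 ± 0.557 CPM in the DM1 group. This 4.29-fold difference was the largest of the called genes (log2 fold change 2.10 ± 0.29, adjusted p-value 0.00359), and all DM1 libraries of *Cxcl9* were above all normal ones. *Cxcl10*, 18.6 kb away, had 80, 24, and 6 counts against 24, 15, and 12. The normal libraries of *Cxcl10* spanned the DM1 libraries, and the DM1 level was 0.499 of the normal level with a 95% confidence interval of the log2 fold change from -2.72 to 0.71 (adjusted p-value 0.418). Its log2 fold change ran from -1.48 to 0.01 when single libraries were left out. *Cxcl10* shares 133 exonic bases with *Art3* on the opposite strand. *Cxcl11*, the third ligand of this receptor, had at most 8 counts and was not tested.

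*Cxcl14*, a chemokine made by many epithelial and stromal cells (chr13:56288643-56296551), had 28, 22, and 22 counts in the normal group and 74, 71, and 109 counts in the DM1 group. It rose 3.60-fold, from 0.335 ± 0.0218 to 1.21 ± 0.371 CPM (log2 fold change 1.85 ± 0.33, adjusted p-value 0.00931). DM1 library 3 of *Cxcl14* was above the other two, which were 0.995 and 0.997 CPM, and without that library the call was kept.

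*Cxcl12* and *Cxcl13* together made up 65.0% to 70.4% of the summed CPM of the chemokine ligand genes in each library. *Cxcl12* (SDF-1, chr6:117168535-117181367), the ligand of CXCR4 and ACKR3, had 4757, 4402, and 3316 counts against 5313, 5185, and 7259. The mean was 58.6 ± 12.2 CPM in the normal group and 84.5 ± 21.4 CPM in the DM1 group. DM1 library 3, with 109 CPM, stood above the other 5 libraries, and normal library 2, with 71.7 CPM, reached into the range of the DM1 group. The log2 fold change of 0.53 ± 0.21 had an adjusted p-value of 0.138 in edgeR and of 0.0226 in DESeq2, so its call depended on the tool. Without CUG200 replicate 3 the log2 fold change was 0.30, and without CUG5 replicate 2 it was 0.70.

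*Cxcl13*, the ligand of the B cell receptor CXCR5 (chr5:95956951-95961068), had 3951, 3518, and 3504 counts in the normal group against 2721, 2826, and 2281 in the DM1 group. It fell from 51.5 ± 5.27 to 36.9 ± 2.69 CPM (log2 fold change -0.48 ± 0.10, adjusted p-value 0.0161). The groups did not overlap. Without CUG5 replicate 2 or CUG5 replicate 3 the adjusted p-value of *Cxcl13* rose over 0.05, up to 0.0660.

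The ligands that are made as membrane proteins were *Cx3cl1* and *Cxcl16*. *Cx3cl1* (fractalkine, the ligand of CX3CR1, chr8:94772009-94782427) had 1581, 1099, and 1373 counts in the normal group and 634, 600, and 813 counts in the DM1 group. It fell from 18.8 ± 0.877 to 9.73 ± 2.17 CPM (log2 fold change -0.95 ± 0.16, adjusted p-value 0.00734). The groups of *Cx3cl1* did not overlap, and its log2 fold change did not reach the cutoff of -1. *Cxcl16*, the ligand of CXCR6, had 147, 96, and 110 counts against 137, 157, and 184, and all its DM1 libraries were higher in CPM. Its log2 fold change of 0.48 ± 0.22 had an adjusted p-value of 0.177 and was 0.31 without CUG200 replicate 3. *Cxcl16* shares 552 exonic bases with *Zmynd15* on the opposite strand.

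*Xcl1* (lymphotactin, a ligand of XCR1 made by lymphocytes) had 8, 4, and 4 counts in the normal group and 18, 15, and 15 counts in the DM1 group. The groups did not overlap, but these are few fragments, and the log2 fold change of 1.60 ± 0.64 had an adjusted p-value of 0.128. With limma on log2(TPM + 1) and log2(TPM + 0.1) *Xcl1* was called higher. *Xcl1* shares 98 exonic bases with *Gm20743* on the opposite strand.

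Counts without a test were found for 9 genes, with a highest count from 1 to 13. *Ccl28*, a mucosal chemokine, had 0 counts in each normal library and 13, 7, and 0 in the DM1 libraries. *Cxcl17* had 1, 0, and 8 counts against 0, 4, and 12, and *Ccl17* had 0, 4, and 4 against 8, 0, and 0. *Ccl6*, *Ccl12*, *Ccl22*, *Ccl27a*, *Cxcl3*, and *Cxcl11* had at most 9 counts in any library. No direction can be read from these values. The 21 entries at 0 in all libraries were those of *Ccl1*, *Ccl3*, *Ccl4*, *Ccl20*, *Ccl24*, *Ccl26*, *Ccl27b*, *Cxcl2*, *Cxcl15*, *Ccl19*, *Ccl21a*, *Ccl21b*, and *Ccl21c*, the pseudogenes *Ccl19-ps1* and *Ccl19-ps3*, and the scaffold copies of *Ccl27a*. The *Ccl19*, *Ccl21*, and *Ccl27* entries have near-identical copies, between which reads can be split or lost in the counting, so their 0 is uncertain.

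Per length, the order of the genes was led by *Cxcl13* with a mean of 62.2 TPM over the 6 libraries, followed by *Cxcl12* with 35.6, *Ccl2* with 15.7, *Ccl25* with 14.8, and *Ccl7* with 14.2 TPM. The order of the last 3 was not the same in the groups. In the normal group *Ccl25* (14.6 to 15.1 TPM) was above *Ccl7* (10.3 to 12.2) and *Ccl2* (9.61 to 12.6), which overlapped, and in the DM1 group *Ccl2* (15.4 to 26.1), *Ccl7* (15.4 to 18.4), and *Ccl25* (13.2 to 17.2) all overlapped. *Cx3cl1* with 7.43, *Ccl8* with 4.29, and *Cxcl1* with 2.99 TPM came next. The other 9 tested genes had a mean under 2 TPM. The TPM of *Cxcl12* ran from 18.5 to 43.9 in the normal group and from 25.5 to 72.4 in the DM1 group, and that of *Cxcl13* from 70.3 to 81.9 and from 44.9 to 51.9. Thus *Cxcl13* was above *Cxcl12* in every library but DM1 library 3. Summed over the family, the CPM were 154, 183, and 150 in the normal libraries and 166, 169, and 208 in the DM1 libraries, and these ranges overlapped.

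Many of these genes lie next to each other, and called genes stood beside genes that were not called. On chromosome 11, *Ccl2* and *Ccl7* rose, whereas *Ccl11*, 10.3 kb beyond *Ccl7*, had a log2 fold change of -2.14 and *Ccl8* one of -0.06, both outside the threshold. In the second group of that chromosome, *Ccl9* rose, and *Ccl5*, 42.4 kb away, had a log2 fold change of -1.55 that did not pass. *Cxcl5* and *Cxcl1* rose on chromosome 5 with *Cxcl3*, *Cxcl15*, and *Cxcl2*, at 0 or 1 count, between or beside them. *Cx3cl1* fell on chromosome 8, and its neighbours *Ccl22*, 20.3 kb away, and *Ccl17* had at most 8 counts. No 2 of these genes share exonic bases on the same strand. Whether the changes of 2 neighbours differed was not tested.

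**Figure D3:**
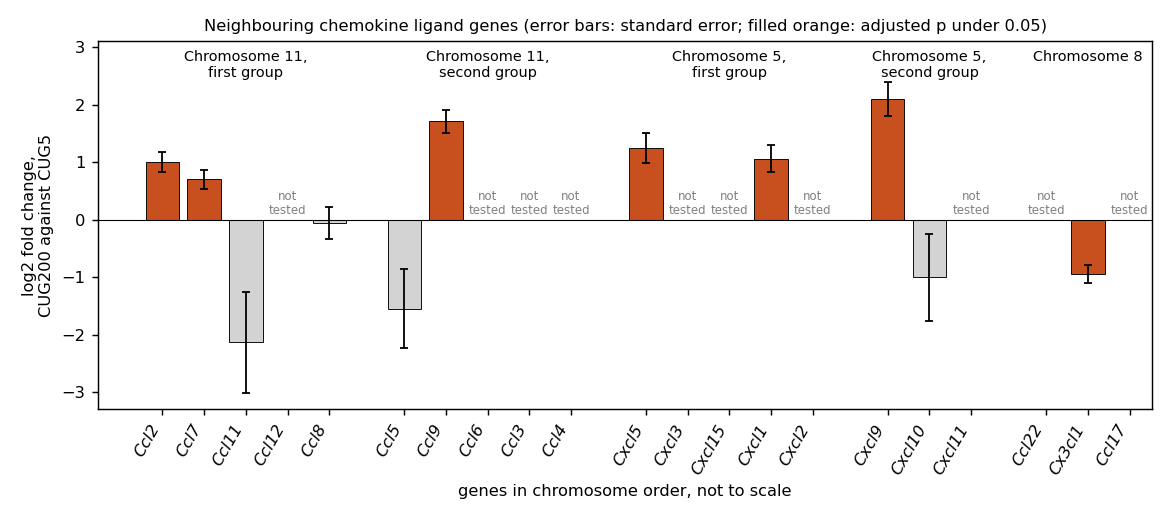
Log2 fold change of CUG200 against CUG5 for chemokine ligand genes that lie near each other, in chromosome order but not to scale, with bars from 0, standard errors, and orange fill for an adjusted p-value under 0.05. Genes with too few counts are marked as not tested. *Ccl2*, *Ccl7*, *Ccl9*, *Cxcl5*, *Cxcl1*, and *Cxcl9* point upward, and the same stretches also hold genes that are grey, near 0, or not tested.

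Most receptor genes had few or 0 counts in these cells. Of 24 receptor genes, 9 were at 0 in all libraries and 8 were tested, of which 0 rose and 1 fell (12.5%, against 15.9% of all genes tested). With an unadjusted p under 0.05, edgeR gave 0 higher and 1 lower, and DESeq2 called 0 higher and 1 lower. *Cxcr4*, the signaling receptor of *Cxcl12*, had 1966, 1343, and 1660 counts in the normal group against 1008, 910, and 932 in the DM1 group. It fell from 23.0 ± 1.00 to 13.4 ± 0.629 CPM (log2 fold change -0.77 ± 0.10, adjusted p-value 0.00285), with no overlap of the groups. *Ackr3*, the scavenging receptor of *Cxcl12*, was the most abundant receptor, with 11047, 7525, and 7785 counts against 11446, 8852, and 7766 (log2 fold change 0.11 ± 0.12, adjusted p-value 0.584). *Ackr3* and *Cxcr4* were the only tested receptors above 10 CPM in all 6 libraries, and both bind *Cxcl12*.

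For the ligands that rose, the leukocyte receptors were at or near 0. *Cxcr2* and *Cxcr3* had 0 counts in every library, *Ccr2* had 1 count in 1 library, and *Ccr1* had at most 9 counts. *Cx3cr1*, the receptor of *Cx3cl1*, had 15, 8, and 0 counts against 17, 10, and 14 (log2 fold change 0.88, adjusted p-value 0.599). *Cxcr5*, the receptor of *Cxcl13*, had at most 4 counts. *Ccr9*, *Ccr10*, *Cxcr6*, *Ackr4*, and *Xcr1* were tested and did not pass, with adjusted p-values from 0.402 to 0.702.

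**Figure D4:**
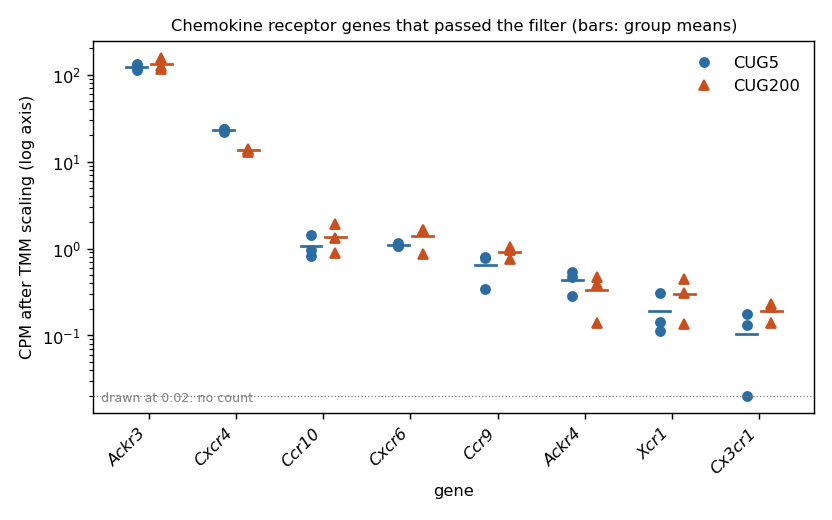
CPM after TMM scaling (log axis) of the 8 tested chemokine receptor genes in the 6 libraries, with circles for CUG5, triangles for CUG200, and bars for the group means. *Ackr3* and *Cxcr4* lie above 10 CPM, the groups of *Cxcr4* are apart, and 1 library of *Cx3cr1* without a count is drawn at 0.02.

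Other genes of the pathway were taken from lists. Of the 4 chemokine-like ligands with other names, *Mif* and *Cklf* were tested and 0 of 2 passed in edgeR, with 1 higher by the unadjusted p. *Mif*, a cytokine that also binds CXCR4, was the most abundant, with 344 ± 44.3 against 526 ± 138 CPM (log2 fold change 0.61 ± 0.18). Its adjusted p-value was 0.0562 in edgeR, and it was called by DESeq2 and, within edgeR, with library sizes alone, with at least 10 counts in every library, with counts divided by 4, and without CUG200 replicate 3 (0.0381 to 0.0467). *Cklf* had a log2 fold change of 0.40 and an adjusted p-value of 0.262 (0.0469 without CUG200 replicate 3). *Pf4* was at 0, and *Ppbp* had 4 counts in 1 library.

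Of 18 tested genes that carry the signal behind the receptors, 1 rose and 1 fell, a share of 11.1% against 15.9% of all genes tested. *Gng2*, a G protein gamma subunit, rose from 8.74 ± 0.623 to 17.1 ± 2.81 CPM (log2 fold change 0.97 ± 0.14, adjusted p-value 0.00478). *Rgs16*, which shortens G protein signals, fell from 12.3 ± 1.04 to 7.31 ± 1.02 CPM (log2 fold change -0.75 ± 0.14, adjusted p-value 0.0111), a call that was lost without CUG5 replicate 3 (0.0551). The most abundant of this list, *Gng5* and *Gnai2*, had log2 fold changes of 0.42 and -0.01 and did not pass, although *Gng5* was called by DESeq2 (0.0328) and without CUG200 replicate 3 (0.0114). DESeq2 called 2 genes of this list higher and 1 lower.

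Among 11 tested proteases that cut chemokines and carriers of heparan sulfate, 0 rose and 2 fell, a share of 18.2% that is near the 15.9% of all genes tested. Unadjusted, 0 were higher and 3 lower (30.7% of all genes tested), and DESeq2 called 0 higher and 2 lower (23.1%). *Mmp3*, a matrix metalloproteinase, had 40, 48, and 21 counts against 0, 8, and 4 (log2 fold change -3.14 ± 0.89, adjusted p-value 0.0443), and it passed the filter through the normal group alone. That call was lost in each of the 6 fits without 1 library, with adjusted p-values from 0.0528 to 0.165. *Sdc4*, a syndecan that carries heparan sulfate, fell from 80.9 ± 7.44 to 62.3 ± 3.74 CPM (adjusted p-value 0.0284) and was not called without CUG5 replicate 1, CUG5 replicate 3, or CUG200 replicate 2 (up to 0.136), nor by limma on the TPM values (0.0512 and 0.0529). *Sdc2* and *Mmp14*, the most abundant of the list, had log2 fold changes of 0.18 each and did not pass, although *Sdc2* was called without CUG200 replicate 3 (0.0476).

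Of 28 tested genes of inflammatory signaling upstream of chemokine genes, 4 rose and 0 fell (14.3%, near the 15.9% of all genes tested). With an unadjusted p under 0.05, 8 were higher and 1 was lower (30.7% of all genes tested), and DESeq2 called 6 higher and 0 lower (23.1%). *Lif*, a cytokine of the interleukin 6 family, rose from 14.4 ± 1.47 to 24.9 ± 4.07 CPM (log2 fold change 0.79 ± 0.14, adjusted p-value 0.00972). *Tnfaip3*, which restrains NF-κB and is itself one of its targets, rose from 35.6 ± 1.68 to 51.6 ± 4.46 CPM (log2 fold change 0.54 ± 0.09, adjusted p-value 0.00803). *Tlr2*, a receptor for bacterial lipoproteins, rose with a log2 fold change of 0.71 ± 0.15 (adjusted p-value 0.0163), but not without CUG5 replicate 2 or CUG5 replicate 3 (up to 0.0595). *Il1b* had 130, 78, and 67 counts against 165, 178, and 144 (adjusted p-value 0.0394), and its call was lost in all 6 fits without 1 library (0.0527 to 0.127). In limma on the TPM values, *Lif*, *Tnfaip3*, *Tlr2*, and *Il1b* were not called, with adjusted p-values from 0.0626 to 0.232. *Il33* and *Vcam1*, the most abundant of the list, had log2 fold changes of 0.27 and 0.19 and did not pass, although *Il33* was called by DESeq2 (0.0487) and without CUG200 replicate 3.

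Some markers of muscle and of fibroblasts differed between the groups. Of 12 muscle genes, 0 rose and 8 fell (of all genes tested, 8.73% fell), and their summed CPM was 8891 to 9819 in the normal libraries and 5097 to 6391 in the DM1 libraries. By the unadjusted p 1 muscle gene was higher, and DESeq2 called 0 higher. *Myh3*, the embryonic myosin heavy chain, fell with a log2 fold change of -1.32 ± 0.16 (adjusted p-value 0.00270) and the transcription factor *Mef2c* with one of -1.01 ± 0.26 (adjusted p-value 0.0471). The *Mef2c* call was lost without CUG5 replicate 2 or any 1 of the CUG200 libraries, with adjusted p-values up to 0.186, and with no filter beyond 1 count (0.112). Without CUG5 replicate 3, the normal library with the most *Mef2c* counts, its log2 fold change was -0.62. *Acta1* and *Tnnt3*, the most abundant muscle genes, fell with log2 fold changes of -0.91 and -0.37. The *Tnnt3* call was lost without any 1 of the CUG5 libraries or CUG200 replicate 2 (up to 0.104). In RNA of whole cultures, fewer cells of a type and less RNA per cell cannot be told apart.

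Of 8 fibroblast and fibro-adipogenic markers 6 were tested, of which 3 rose (of all genes tested, 7.13% rose) and 0 fell. DESeq2 called 0 lower, and 0 were lower by the unadjusted p. The summed CPM of the list was 1165 to 1466 in the normal libraries and 1968 to 2018 in the DM1 libraries. *Thy1*, with 4 counts in 1 library, and *Tcf21*, with 0 counts in every library, were not tested. *Dpt* (dermatopontin, log2 fold change 1.08 ± 0.14, adjusted p-value 0.00304) and *Col1a1* (collagen I, 1.06 ± 0.09, adjusted p-value 0.000916) were past both cutoffs. *Dcn* (decorin) rose by less (0.45, adjusted p-value 0.0281), a call lost without any 1 of the CUG5 libraries or CUG200 replicate 2 (up to 0.115) and by limma on the TPM values (0.108 and 0.111), and *Ly6a*, which varied widely within groups, did not pass (0.22). The part of these shifts in the chemokine differences was not tested.

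Of 11 leukocyte markers, 5 were tested and 0 passed (15.9% of all genes tested did). In edgeR 1 was higher and 0 lower with an unadjusted p under 0.05, and DESeq2 called 0. Their summed CPM was 11.3 to 12.3 in the normal libraries and 12.9 to 15.2 in the DM1 libraries, and the defining genes *Ptprc*, *Adgre1*, and *Cd3e* had 0 counts in each. *Cd14* and *Cd68*, the most abundant of them, had log2 fold changes of 0.39 and 0.08. Of 7 endothelial markers 2 were tested, 0 rose and 1 fell (of all genes tested, 8.73% fell), and their summed CPM was 9.14 to 10.9 against 5.06 to 6.71. By the unadjusted p 1 was higher, and DESeq2 called 0 higher. *Tek* fell with a log2 fold change of -0.95 (adjusted p-value 0.0107), a call lost without CUG200 replicate 2 (0.0526), and *Vwf* had one of 0.59 (adjusted p-value 0.163).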

How the data were processed

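Total RNA of 6 libraries (3 per group) was sequenced. Per the methods, the authors trimmed the reads with Trim Galore, aligned them to GRCm38 with HISAT2, and quantified genes with StringTie. The deposited counts, in a table of all 6 libraries, are not normalized. The authors also deposited, for each library, tables with the coverage (signal), FPKM, and TPM of each gene. Tool versions, annotation, and strand setting are not given in the sources used here. Counts were used for the main tests, coverage for the unit of a count (99.8% of 34267 genes with a single transcript matched within 1 count), and TPM for levels per length and an alternative test. FPKM was not used. All 6 count columns were used.

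Genes were joined by identifier, and 99.7% of the 55421 genes were found in GENCODE M21. After filterByExpr (minimum count 10, or 0.140 CPM), 19005 genes were scaled by TMM (factors 0.940 to 1.05) and compared with edgeR's robust quasi-likelihood test and Benjamini-Hochberg adjustment over all genes tested. The biological coefficient of variation was 0.221. Group and replicate came from the sample titles. The test was tested on simulated data, in which only well-counted genes changed, all by a large fold. Smaller changes and changes of genes with few counts were not covered. No 2 libraries agreed within sampling noise (chi-square per degree of freedom 40.2 to 251).

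By rule, all tested chemokine ligand genes were named, and of each list the genes past both cutoffs and the 2 of the highest mean TPM. Other list genes that are named were chosen after their values were seen. The members, lists, and alternatives were chosen with earlier results of these data known. The alternatives covered the tool (DESeq2), the scaling (DESeq2's size factors within edgeR, or none beyond the library sizes), the filter (1 count over all libraries, or 10 in each library), estimation that is not robust, a block for the replicate number, counts divided by 4, a glmTreat test against a log2 fold change of 1, limma-trend on log2 of TPM with 1 or 0.1 added, summing of genes that overlap on a strand, and leaving out each library. Python 3.11.15 with pandas 2.3.3, numpy 2.4.6, and matplotlib 3.10.9 prepared the tables and figures, and edgeR 4.0.16, limma 3.58.1, and DESeq2 1.42.0 ran in R 4.3.3. Some items of the lists and motifs are not reported here.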

Additional observations from a re-analysis of the deposited data

How the results depend on the processing

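No called gene changed direction under any alternative that was run. The counts of chemokine ligand genes (7 higher and 2 lower, with 6 higher and 0 lower past both cutoffs) stayed within 1.5 times under the other settings, with these exceptions. With glmTreat, which asks for a log2 fold change beyond 1, all 4 counts were 0, as only 4 of the 19005 genes passed. Past both cutoffs, limma-trend on log2(TPM + 1) gave 0 higher, and on log2(TPM + 0.1) gave 2 lower. The TPM settings shifted the median of all genes by -0.12. For the pathway lists (5 higher and 4 lower), DESeq2 gave 9 higher, both TPM settings gave 1 higher, and glmTreat gave 0 in each direction, as it did for the marker lists (3 higher and 9 lower).

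Leaving out single libraries moved the share of all genes called from 5.18% (without CUG5 replicate 3) to 19.2% (without CUG200 replicate 3), and gave 4 to 7 higher and 1 to 2 lower chemokine ligand genes, and 4 to 6 higher and 0 to 1 lower past both cutoffs. The 4 higher came without CUG5 replicate 3, and the 4 higher past both cutoffs without CUG5 replicate 1 or CUG5 replicate 3. The 1 lower came without CUG5 replicate 2 or CUG5 replicate 3, and the 1 lower past both cutoffs without CUG200 replicate 3. The pathway lists gave 3 to 9 higher and 1 to 6 lower, with the 3 without CUG5 replicate 2, the 9 without CUG200 replicate 3, and the 1 without CUG5 replicate 3. The marker lists gave 2 to 4 higher and 4 to 8 lower, with the 4 lower without CUG200 replicate 2. The cause was not tested. *Ccl2*, *Ccl9*, *Cxcl9*, *Cxcl14*, and *Cx3cl1* kept their call in all 6 fits without a library and under every other alternative except glmTreat, and *Ccl7*, *Cxcl1*, *Cxcl5*, and *Cxcl13* lost it in at least 1 of the 6.

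Libraries of the same replicate number correlated with r = 0.125, 0.0634, and 0.0619 in their deviations from the group means, and as only the first is over the 0.1 asked of each pair, the numbers were not taken as pairs, although every library correlated best with its own number. With the replicate number as a block, 2823 genes were called in place of 3016, and *Ccl7* (adjusted p-value 0.0523), *Mmp3* (0.0587), and *Il1b* (0.0519) were not called, whereas *Mif* (0.0137) and *Gng5* (0.0486) were. For *Ccl5*, *Cxcl10*, and *Xcl1*, DESeq2, the filter of 10 counts in every library, and counts divided by 4 gave no value, nor did that filter for *Ccl11*. Depth limits the genes with fewer than about 10 counts.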

Other observations

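The deposited TPM and the counts did not give the same picture of *Cxcl12*. The TPM of this gene divided by its CPM ran from 0.357 to 0.664 between libraries, a 1.86-fold range, whereas the same ratio ranged 1.27-fold for *Cxcl13*, 1.27-fold for *Ccl2*, and 1.23-fold for *Ccl25*. The ratio was 0.462, 0.612, and 0.390 in the normal libraries and 0.357, 0.377, and 0.664 in the DM1 libraries, so that it was highest in DM1 library 3 and in normal library 2 and did not separate the groups. *Cxcl12* has 4 transcripts in GENCODE M21.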
